A study of Mus musculus with 2 samples.

Results

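The arterial endothelial cells of the mouse brain were described here as 293 droplet barcodes out of 2179 that passed an endothelial gate and 25287 in the series. Members were chosen by their own counts: a barcode needed 1000 to 50000 unique molecular identifiers (UMIs, 1 per captured transcript), at most 30% mitochondrial UMIs, at least 5 UMIs of Cldn5, Flt1, Ly6c1 and Pecam1 together, few UMIs of microglial, astrocyte and mural genes, and at least 2 UMIs of Gkn3, Bmx and Sema3g together that also outnumbered those of the venous-side genes Slc38a5 and Car5a. The E3 library gave 117 members and the E4 library 176. E3 and E4 are female mice aged 11 to 12 months in which the human APOE3 or APOE4 allele takes the place of mouse Apoe, and both groups carry a human allele, so neither is wild type. For each genotype, right hemispheres without brainstem and cerebellum from 3 perfused mice were pooled, dissociated with enzymes and loaded as 1 library, so an E4 against E3 difference has no replicate check and no test was made. Intervals below are exact 95% intervals for counting error only.

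Endothelial cells change along the vessel tree: arteries and arterioles carry blood under pressure and lie against smooth muscle, capillaries exchange nutrients across the blood-brain barrier, and veins collect the blood. Arterial fate in development depends on Notch signalling, and arterial endothelium is known for elastic fibre genes, ephrin-B2 and connexins. Capillary endothelium is known for nutrient carriers and for the receptor that takes up transferrin.

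The arterial barcodes made up 13.1% of the endothelial gate in E3 (117 of 896, exact binomial interval 10.9 to 15.4) and 13.7% in E4 (176 of 1283, 11.9 to 15.7). These intervals overlapped. Of all barcodes they were 1.02% in E3 and 1.28% in E4. The arterial barcodes were deeper than the other endothelial barcodes: the median was 5349 UMIs in E3 and 6204 in E4, against 3703 and 3492. Their summed depth was 835297 UMIs in E3 and 1323961 in E4, and mitochondrial UMIs had medians of 5.26% and 5.95%. After each barcode was thinned to 2000 UMIs, arterial barcodes held a median of 1146 genes in E3 and 1175 in E4, close to the 1128 and 1149 of the others. Thinning left out 7 and 2 shallower arterial barcodes, and before it the arterial medians were 2209 and 2589 genes against 1725 and 1696. No arterial barcode sequence occurred in both libraries.

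The genes that chose the members are given as a description. Gkn3 encodes gastrokine 3, Bmx a Tec-family tyrosine kinase of arterial endothelium, and Sema3g a secreted semaphorin. Gkn3 stood at 678 CPM (UMIs of the gene scaled to a common total of UMIs) in E3 arterial barcodes and 523 in E4, against 2.59 and 7.36 in the other endothelial barcodes. Bmx stood at 238 CPM in both libraries, against 5.69 and 8.08. Sema3g stood at 314 and 263 CPM, against 27.1 and 25.7, and was therefore the least exclusive of the 3. A UMI of Sema3g was present in 87.2% of E3 and 77.3% of E4 members, of Bmx in 61.5% and 67.0%, and of Gkn3 in 56.4% and 65.9%. After thinning to 2000 UMIs the shares were 52.7% and 34.5% for Sema3g, 37.3% and 36.8% for Bmx and 43.6% and 44.3% for Gkn3. By this thinned share the libraries differed most in Sema3g, while by CPM they differed most in Gkn3. All 3 genes were seen together in 43 E3 barcodes and 62 E4 barcodes, while 37 and 44 rested on 1 gene alone. In microglia-gated barcodes, which should lack the genes and had median depths of 3754 and 4347 UMIs, the share with a UMI stayed at or below 0.176% in E3 and 0.237% in E4 for each of the 3. Cldn5, the main claudin of the barrier and also part of the gate, was present at 4829 and 5137 CPM, against 6224 and 5730.

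**Figure D1:**
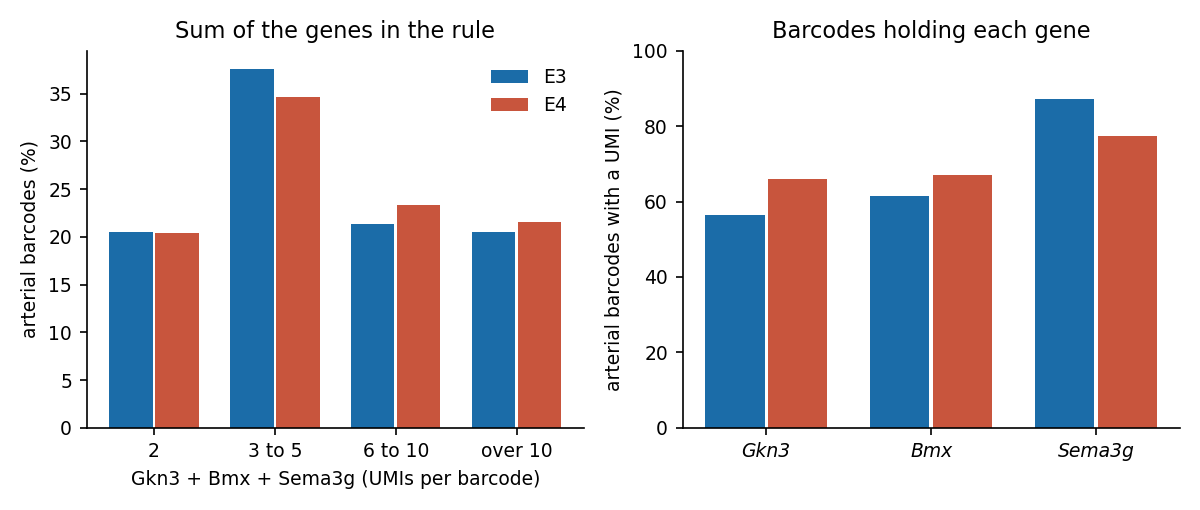
The left panel plots the share of arterial barcodes (%) by the sum of Gkn3, Bmx and Sema3g UMIs, and the right panel the share with a UMI of each gene, for E3 (blue, 117 barcodes) and E4 (red, 176 barcodes). About 20.5% of members in each library sat at the threshold of 2, and Sema3g was the gene found in most members.

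The sum of the 3 genes had a median of 5 in both libraries and reached 113 in E3 and 43 in E4. Just inside the threshold, 24 E3 and 36 E4 barcodes had a sum of exactly 2, with median depths of 3746 and 4551 UMIs. Just outside it, 102 E3 and 156 E4 barcodes had a sum of 1, with median depths of 4795 and 4385. A further 14 and 26 barcodes had a sum of at least 2 but as many or more UMIs of Slc38a5 and Car5a. They were the deepest of these sets, with medians of 7774 and 12305 UMIs.

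The RefSeq sequences of the 250 bases before the start of each of the 3 genes (build GRCm38.p6) are shown because every member was found through these transcripts. Capitals mark ACAAT on either strand (ATTGT when read on the other), the core letters bound by SOX-family factors, a family that includes the arterial factor Sox17.
Gkn3, chr6:87388936-87389185, minus strand: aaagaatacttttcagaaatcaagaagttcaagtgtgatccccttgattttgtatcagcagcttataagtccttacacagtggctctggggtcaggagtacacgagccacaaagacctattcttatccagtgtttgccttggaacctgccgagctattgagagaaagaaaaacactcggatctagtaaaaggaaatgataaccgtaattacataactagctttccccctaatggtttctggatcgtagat
Bmx, chrX:164258194-164258443, minus strand: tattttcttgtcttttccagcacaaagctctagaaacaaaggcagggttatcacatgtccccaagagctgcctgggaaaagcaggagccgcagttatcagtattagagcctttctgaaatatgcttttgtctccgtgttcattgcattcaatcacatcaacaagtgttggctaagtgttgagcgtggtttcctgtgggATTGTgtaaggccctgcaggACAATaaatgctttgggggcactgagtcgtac
Sema3g, chr14:31217623-31217872, plus strand: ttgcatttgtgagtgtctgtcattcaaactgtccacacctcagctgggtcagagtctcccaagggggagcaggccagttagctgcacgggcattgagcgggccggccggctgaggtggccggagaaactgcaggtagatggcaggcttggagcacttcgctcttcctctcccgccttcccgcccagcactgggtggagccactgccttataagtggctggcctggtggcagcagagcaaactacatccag
Bmx held 2 matches, and Gkn3 and Sema3g held none in this window. ACAAT occurred in 30.9% of the 27025 genes with a window of this length in the table. Among the 40 genes higher in arterial barcodes (defined below) that had a window, 6 held it (15%), beside 20.9% of all the 4802 compared genes with one. GTGGGAA, letters bound by RBPJ, the DNA-binding partner of Notch, occurred in 1 of the same 40 and in 5.71% of the compared genes. These matches are letters and not tested sites.

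Outside the genes of the gate and the rule, the arterial barcodes were set apart from the other endothelial barcodes by artery and arteriole genes such as Mgp, Fbln2 and Stmn2, by elastin, by Hey1 and by the endothelin genes Edn1 and Edn3 on the high side, and by capillary genes such as Car4, Slc16a1 and Tfrc on the low side. Of 5981 genes with at least 100 UMIs in the gate of each library, 60 (1.0%) were at least 2-fold higher in both libraries and 34 (0.568%) at least 2-fold lower in both. The 60 included 3 smooth muscle markers, whose UMIs sat in few barcodes (described below). Because arterial barcodes were picked from the same counts, these ratios are a description of the chosen barcodes and no test of them. In 24 of the 60 genes, the other barcodes of a library held under 100 UMIs, so those genes reached the minimum through arterial barcodes. In 9 of the 34 lower genes, the arterial barcodes of a library held under 10 UMIs. The median ratio over all compared genes was -0.02 in E3 and 0.01 in E4 on the log2 scale. Leaving out 13 E3 and 21 E4 arterial barcodes that also held smooth muscle, oligodendrocyte, haemoglobin or choroid plexus transcripts, 52 of the 60 and 28 of the 34 genes were called again.

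**Figure D2:**
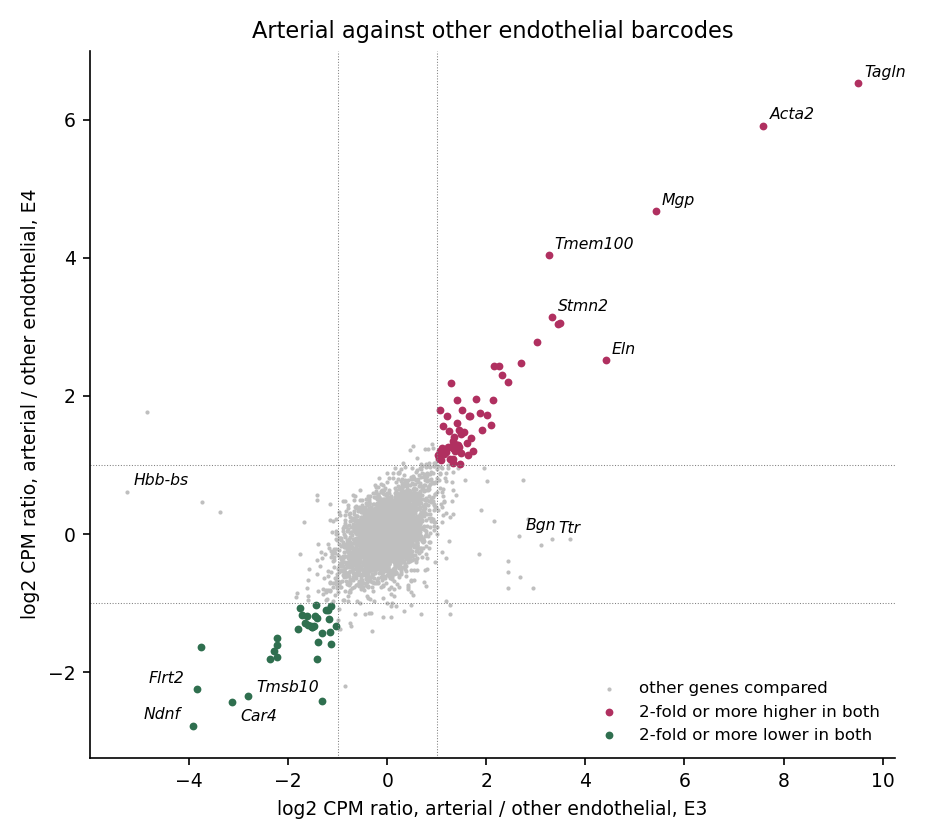
Each point is 1 gene, plotted by its log2 ratio of CPM in arterial over other endothelial barcodes in E3 (horizontal) and E4 (vertical). The 60 genes in red and 34 in green passed 2-fold in the same direction in both libraries, while Bgn, Ttr and Hbb-bs lay off the diagonal.

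Genes of the arterial wall stood at the top. Mgp, which encodes matrix Gla protein, an inhibitor of vascular calcification (chr6:136872435-136875823, minus strand, GENCODE annotation of GRCm38), measured 2397 CPM in E3 arterial barcodes (interval 2293 to 2504) and 953 in E4 (901 to 1007), against 56.1 and 37.3 in the others. Its log2 ratios to the other endothelial barcodes were 5.42 and 4.67. Elastin (Eln) measured 159 and 51.4 CPM against 7.5 and 8.98. Fbln2, an extracellular fibulin, measured 139 and 140 CPM against 12.4 and 16.9, with nearly the same arterial level in both libraries. Stmn2, a stathmin that binds tubulin, measured 333 and 378 CPM against 33.3 and 42.7. Tmem100, a membrane protein downstream of BMP9 and ALK1 signalling, measured 119 and 112 CPM against 12.4 and 6.82, though after thinning 16.0% of E3 and 16.3% of E4 microglia barcodes held it, close to the 17.3% and 16.7% of arterial barcodes. Egfl8 and the cadherin gene Cdh13 were also over 6-fold higher in each library, with log2 ratios of 3.44 and 3.04 for Egfl8 and of 3.03 and 2.78 for Cdh13. Of the 17 genes in the artery and arteriole list, 11 could be compared, 9 of these were at least 2-fold higher in both libraries and none lower, with a median log2 ratio of 1.64 in E3 and 1.51 in E4. Gkn3, Bmx and Sema3g are not in that list. Arterial UMIs count toward the minimum, so a listed gene sparse in the others could be compared only if high in arterial barcodes. The 9 of 11 is therefore a description that the filter favoured.

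Several genes of that list were too sparse for the count minimum and are given as counts. Fbln5, another fibulin needed for elastic fibres, had 167 UMIs in E3 arterial barcodes and 59 in E4, against 4 and 11 in the far larger remainder. Cytl1, a secreted cytokine-like protein, had 136 and 45 UMIs against 2 and 0. With 3 counts over the E4 others as the floor, Cytl1 was at least 63.1-fold higher there. Vegfc, the lymphatic and venous growth factor, had 59 and 97 UMIs against 33 and 30. Gja4, the gene of connexin 37, had 39 and 52 UMIs against 15 and 12. Gja5, the gene of connexin 40, had 12 UMIs in 9 E3 arterial barcodes and 0 in E4, a count that allows up to 3 UMIs. The difference between libraries in Gja5 therefore rests on 9 barcodes.

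Genes of the Notch pathway differed less. Of 14 listed, 10 could be compared, 7 were above and 3 below the other endothelial barcodes in both libraries, and the median log2 ratio was 0.48 in E3 and 0.56 in E4. Hey1, a transcriptional repressor switched on by Notch, measured 148 and 147 CPM against 40.3 and 43.6 and was the 1 member past 2-fold in both. The ligand genes Jag1 and Jag2 had log2 ratios of 1.22 and 1.0, and of 0.91 and 0.89. Without the 17 E3 and 12 E4 barcodes richest in Fbln5, Cytl1 and Eln (described below), Jag1 was at 0.28 and 0.34 and Jag2 at 0.93 and 0.83. Notch1, the receptor, measured 352 and 306 CPM against 221 and 213. The ligand Dll4 measured 77.8 and 49.9 CPM against 52.5 and 33.0, so its arterial excess was smaller than that of Hey1. Among 21 compared endothelial transcription factors, none passed 2-fold, and the list's median was -0.05 and -0.07. Klf2, a factor induced by flow, measured 2078 and 1994 CPM against 1759 and 1684.

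Efnb2, the gene of the arterial ligand ephrin-B2, measured 71.8 and 79.3 CPM against 25.3 and 22.8. Unc5b, a netrin receptor, measured 101 and 92.1 CPM against 32.3 and 41.5. Nrp2, a semaphorin and VEGF-C receptor of veins and lymphatics, was lower, with log2 ratios of -1.31 and -1.43. Over the 20 compared guidance and growth factor genes, 2 were higher, 2 lower, and the median was 0.08 and -0.01. The peptide vasoconstrictors were higher: Edn1 (endothelin 1) measured 545 and 494 CPM against 226 and 233, and Edn3 measured 113 and 172 against 47.3 and 61.4. These 2 were the vasoactive genes past 2-fold among 8 compared, and Ramp2, a receptor partner of adrenomedullin, lay on the low side at 854 and 978 CPM against 1297 in both.

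On the low side, the leading genes included the capillary gene Car4. The other barcodes also held vein-side ones with more Slc38a5 and Car5a, 31.1% of the E3 gate and 28.8% of the E4 gate. A low ratio alone therefore does not set capillary genes apart from venous ones. Car4, a carbonic anhydrase on the luminal membrane (chr11:84957786-84966044, plus strand, same annotation), measured 86.2 CPM in E3 (67.4 to 109) and 131 in E4 (113 to 152), against 757 and 709. After thinning, 13.6% of E3 and 13.2% of E4 arterial barcodes held a Car4 UMI, compared with 65.9% of the others in each library and at most 0.674% of microglia barcodes. Before thinning, the shares were 26.5% and 30.1% against 75.5% and 77.4%. Ndnf, a secreted factor, measured 12.0 and 20.4 CPM against 181 and 139. Tmsb10, an actin-binding thymosin, measured 175 and 174 CPM against 1233 and 885. Flrt2, a guidance receptor, had 4 and 20 UMIs in arterial barcodes and log2 ratios of -3.84 and -2.24. All 8 capillary genes were below the others in both libraries, with medians of -1.0 and -0.71. Venous genes did not share a direction. Of 7 compared, 1 was lower past 2-fold in both libraries (Il1r1, log2 ratios -1.80 and -1.38), 4 differed in sign between libraries, and the median was 0.22 in E3 and -0.21 in E4.

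Against all other endothelial barcodes, the blood-brain barrier transporters were lower as a group. Their summed level in arterial barcodes was 10634.5 CPM in E3 and 12004.1 in E4, against 13612.1 and 13491.3. In the vein-side barcodes it was 14201.7 and 14677 CPM. In barcodes with no UMI of Gkn3, Bmx, Sema3g, Slc38a5 and Car5a it was 12628.1 and 11266.7 CPM. Against these last barcodes, the arterial sum was therefore lower in E3 and higher in E4. Among 22 compared, 16 were below and 4 above the other endothelial barcodes in both libraries, 3 were past 2-fold lower and none higher, and the medians were -0.61 and -0.52. Slc16a1, the lactate and ketone carrier MCT1, measured 79.0 and 101 CPM against 389 and 326. Tfrc, the transferrin receptor, measured 151 and 183 CPM against 436 and 463. Slc22a8, the organic anion transporter OAT3, had log2 ratios of -1.13 and -1.04. The glucose carrier Slc2a1 did not follow them: its log2 ratios were 0.035 and 0.16, at 1470 and 2002 CPM in arterial barcodes. Slc6a6, the taurine transporter, went the other way with 1771 and 2338 CPM against 1278 and 1540. Junction genes stayed close to the remainder, with none of 12 past 2-fold and medians of -0.14 and -0.06, while the adherens gene Cdh5 had log2 ratios of 0.26 and 0.33.

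Other lists differed less. Of 17 compared matrix and elastic fibre genes, 3 were at least 2-fold higher and none lower, with medians of 0.51 and 0.43, and Ltbp4, which tethers latent TGF-beta to elastic fibres, measured 891 and 746 CPM against 456 and 442. Of 6 arterial-side capillary genes, 3 lay above and 3 below the other barcodes in both libraries, and the medians were 0.38 and 0.46. At least 2-fold higher in both were 2 of them, and 1 was at least 1.5-fold lower in both. Glul, the gene of glutamine synthetase, measured 1275 and 1484 CPM against 705 and 761. Caveola genes had medians of 0.45 and 0.31 with none of 9 past 2-fold. Antigen presentation and interferon genes had medians of 0.19 and 0.21 with none of 14 past it. Haemostasis genes had medians of -0.28 and -0.09 (6 compared), lipid and sterol genes -0.48 and -0.17 (8 compared, 1 lower), glycolysis genes -0.18 and 0.07 (13 compared), and nuclear oxidative phosphorylation genes -0.03 and -0.10 (40 compared). In these last 4 lists no other member passed 2-fold in both libraries.

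**Figure D3:**
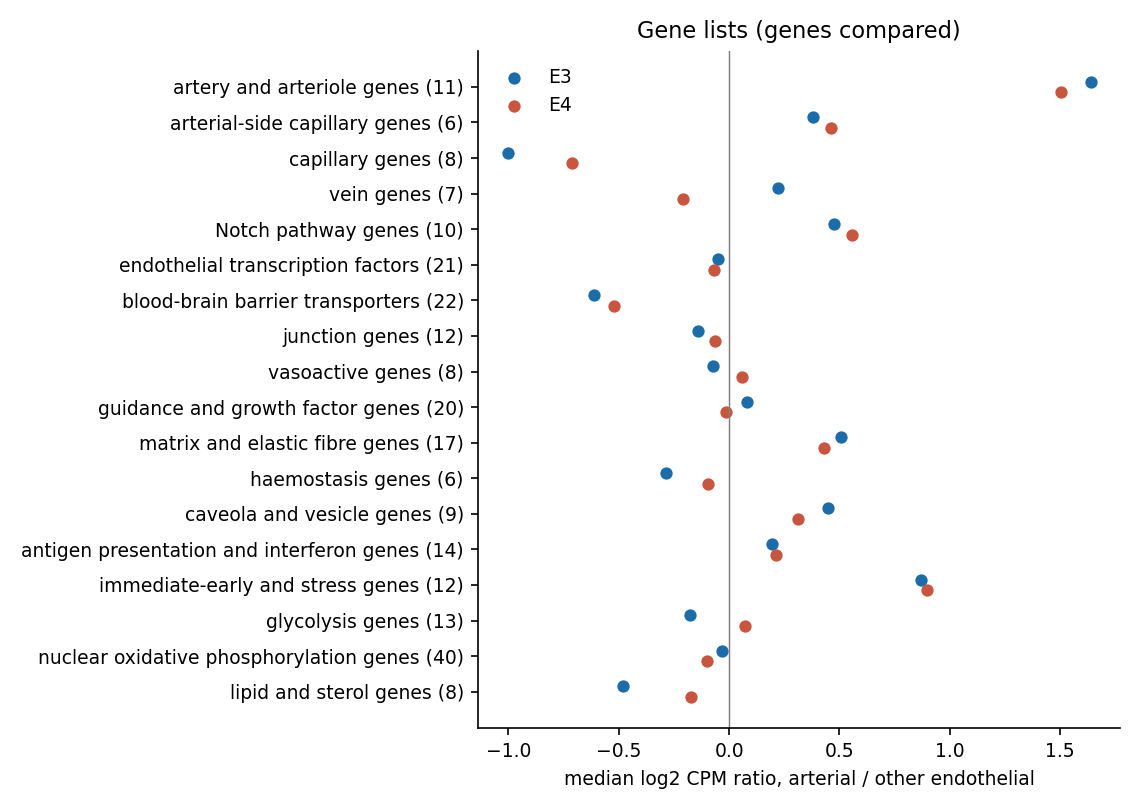
Each row is 1 of the endothelial and general gene lists (marker lists of other cell types are not drawn) with the number of genes compared in brackets, and the points are the median log2 ratio of CPM in arterial over other endothelial barcodes for E3 (blue) and E4 (red). Among the lists drawn, the artery and arteriole list lay farthest to the right (1.64 and 1.51) and the capillary list farthest to the left (-1.0 and -0.71).

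Among immediate-early and stress genes, which cells switch on within minutes of stimulation, 3 of 12 compared were at least 2-fold higher in arterial barcodes of both libraries (Fos, Egr1 and the heat shock gene Hspa1a) and none 2-fold lower in both. The medians were 0.87 and 0.90, and 10 of the 12 lay above 0 in both libraries. Ier3, an immediate-early gene linked to cell survival, lay on the low side in both, at -1.84 and -0.91. Fos measured 201 and 364 CPM against 41.9 and 67.7, but the UMIs lay in 27 of 117 and 60 of 176 arterial barcodes. After thinning to 2000 UMIs, Egr1 in E3 had a log2 ratio of -0.31 in place of 1.42. Microglia barcodes held Fos more often than arterial ones after thinning (33.0% and 36.6% against 15.5% and 24.1%), so Fos was not limited to arterial cells in these suspensions. The tissue was digested with enzymes under heating, and the part of that step was not tested.

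Smooth muscle transcripts were also higher in the arterial barcodes. Acta2, the smooth muscle actin, had 167 and 258 UMIs against 4 and 18, and Tagln, the gene of transgelin, had 157 and 132 against 1 and 6. The summed level of the 5 smooth muscle markers was 578 CPM in E3 and 501 in E4, against 24.8 and 27.3 in the others. They sat in few barcodes: 6 E3 and 10 E4 arterial barcodes with at least 3 UMIs of Acta2, Tagln and Myh11 held 96.8% and 96.4% of those UMIs. Without the barcodes that held another cell type's transcripts, the log2 ratio of Acta2 was 2.72 in E3 and 0.38 in E4, and that of Myl9 0.44 and 0.31, while that of Tagln was 3.4 and 2.18 and that of Mylk, the myosin light chain kinase, 1.61 and 1.35. The barcodes left out were partly defined by Acta2, Tagln and Myh11 themselves. Under the same exclusion Mgp was at 5.39 in E3 and at 3.83 in E4, where it had been 4.67, and Stmn2 was at 3.31 and 3.13. Lum was at 0 and Dcn at no more than 5 UMIs in arterial barcodes. Macrophage, neuron and lymphatic markers stayed between 1.2 and 15.9 CPM summed per list in arterial barcodes, astrocyte markers stood at 214 and 330 CPM against 376 and 385, and microglia markers at 70.6 and 57.4 against 78.9 and 72.4. The 5 pericyte markers stood at 669 and 649 CPM against 536 and 540. Oligodendrocyte markers summed to 925 CPM in E3 and 1594 in E4, against 793 and 1257. Haemoglobin genes summed to 263 and 3655 CPM against 5452 and 2348, and choroid plexus markers to 25544 and 6492 against 2574 and 7119, so for both the arterial excess lay in 1 library only.

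Tm4sf1, Stmn2 and Hey1 stood higher at each higher sum of the 3 rule genes in both libraries, and capillary genes were already lower just below the threshold. Tm4sf1, a tetraspanin-like membrane protein, measured 590 CPM in E3 barcodes with a sum of 0, 977 with 1, 1102 with 2, 1491 with 3 to 5, 1921 with 6 to 10 and 2446 with over 10. The same steps in E4 were 565, 991, 1398, 1746, 1762 and 2353 CPM. Stmn2 stood at 23.8 CPM at the lowest step and 524 at the highest in E3, and at 36.2 and 484 in E4. Other arterial genes did not follow every step. Mgp in E3 was at 32.2 CPM with a sum of 2, below the 52.1 at a sum of 0, and at 7030 with over 10, and in E4 it was at 470 with 3 to 5 and 288 with 6 to 10. Eln had no UMI in E3 barcodes with a sum of 2, and Notch1 and Edn1 in E3 were at 169 and 193 CPM there, beside 210 and 219 CPM at a sum of 0. At a sum of 2 in E3, Mgp, Notch1 and Edn1 had 4, 21 and 24 UMIs. Their intervals were 8.77 to 82.4, 105 to 258 and 124 to 287 CPM, and each included the level at a sum of 0. Car4 was 828 CPM in E3 barcodes with a sum of 0, 445 with 1, 113 with 2 and 44.1 with over 10. In E4, Car4 was 780, 476, 237 and 102 CPM at the same sums. Barcodes with a sum of 1, counted here among the others, thus lay between the members and those with none for Car4 and Tm4sf1. Slc2a1 stayed between 1215 and 1569 CPM in E3 and between 1740 and 2144 in E4. From a sum of 2 up, median depth was also higher at higher sums. It was 3746 UMIs for a sum of 2 and 9041 for over 10 in E3, and 4551 and 9021 in E4. At a sum of 1 it was 4795 in E3, above that at a sum of 2, and 4385 in E4. The part of depth in these steps was not tested.

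**Figure D4:**
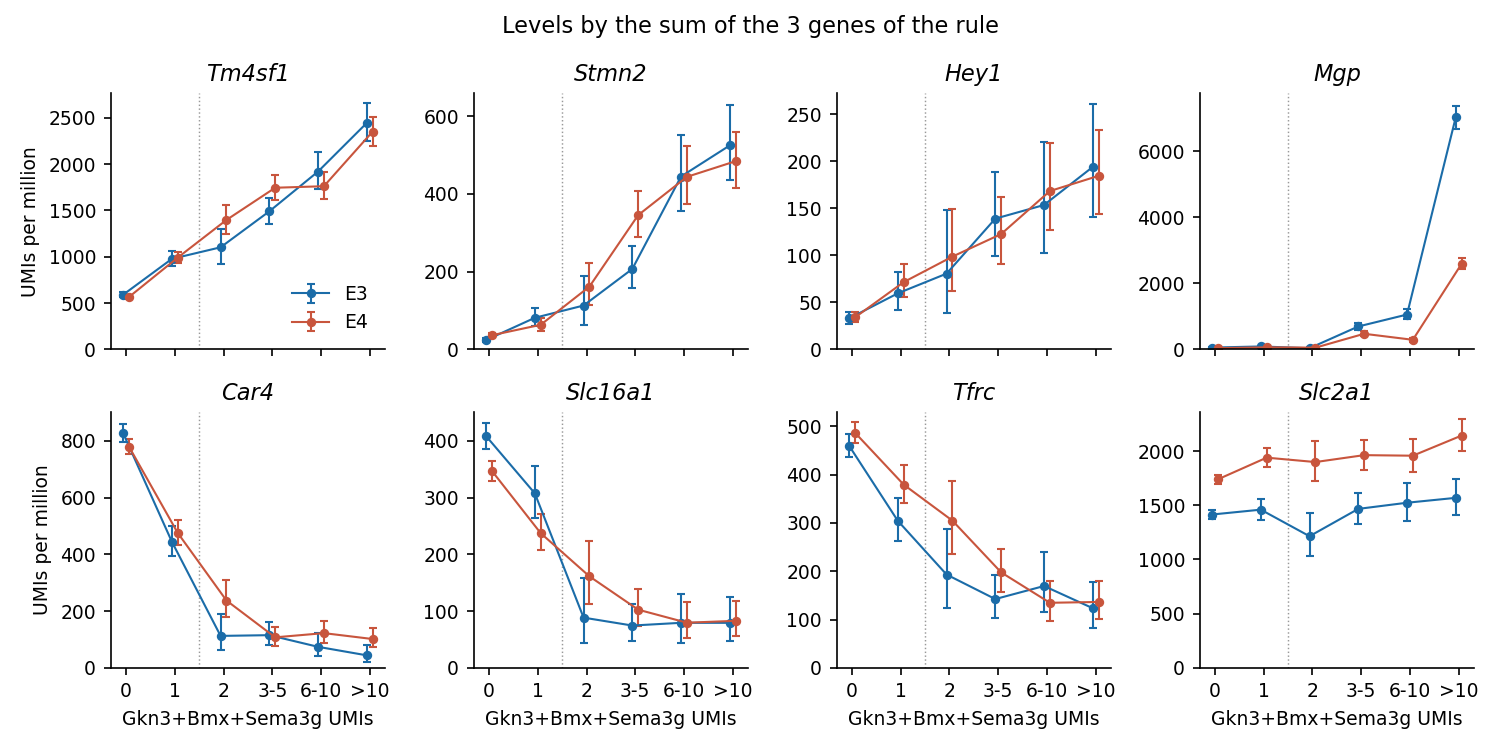
CPM of 8 genes against the sum of Gkn3, Bmx and Sema3g UMIs per barcode, for E3 (blue) and E4 (red), with exact 95% Poisson intervals. The dotted line separates the other barcodes with a sum of 0 or 1 from those with 2 or more, and Tm4sf1, Stmn2 and Hey1 were higher to its right, while Car4, Slc16a1 and Tfrc were lower and Slc2a1 differed little.

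A small set of members carried the large-artery genes. Mgp UMIs were found in 53 of 117 E3 arterial barcodes and 76 of 176 in E4, but 3 E3 barcodes held 529, 374 and 179 of the 2002 UMIs, and 3 E4 barcodes held 213, 152 and 126 of 1262. Fbln5 was present in 17 and 21 barcodes, Cytl1 in 15 and 6, and Eln in 26 and 34. Barcodes with at least 3 UMIs of Fbln5, Cytl1 and Eln together numbered 17 in E3 (14.5% of members) and 12 in E4 (6.82%), a split made after their values were seen. A further 14 E3 and 34 E4 barcodes held 1 or 2. Without the 17 and 12, the log2 ratio to other endothelial barcodes was 2.40 in E3 and 3.01 in E4 for Mgp, 1.28 in both for Eln, and 1.89 and 2.40 for Cdh13. Eln was itself part of the split, so its fall follows from it. The 17 E3 barcodes held 89.5% of all arterial Mgp UMIs and the 12 E4 barcodes 70.4%. In them Mgp reached 14837 CPM in E3 and 10185 in E4, against 250 and 215 in the members with none of the 3 genes. Gkn3 was higher in them too, at 2469 and 1959 CPM against 338 and 371. Car4 was almost absent, with 1 UMI in each library's set. The matrix proteoglycan Bgn, von Willebrand factor (Vwf) and the adhesion molecule Vcam1 gathered in the same E3 barcodes, which held 96.2%, 66.7% and 74.4% of the arterial UMIs of these genes. In E4 the shares were 60.0%, 25.8% and 31.0%. Hey1 did not gather there: it measured 199 and 103 CPM in the set against 149 and 145 in members without the 3 genes, with overlapping intervals in each library.

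**Figure D5:**
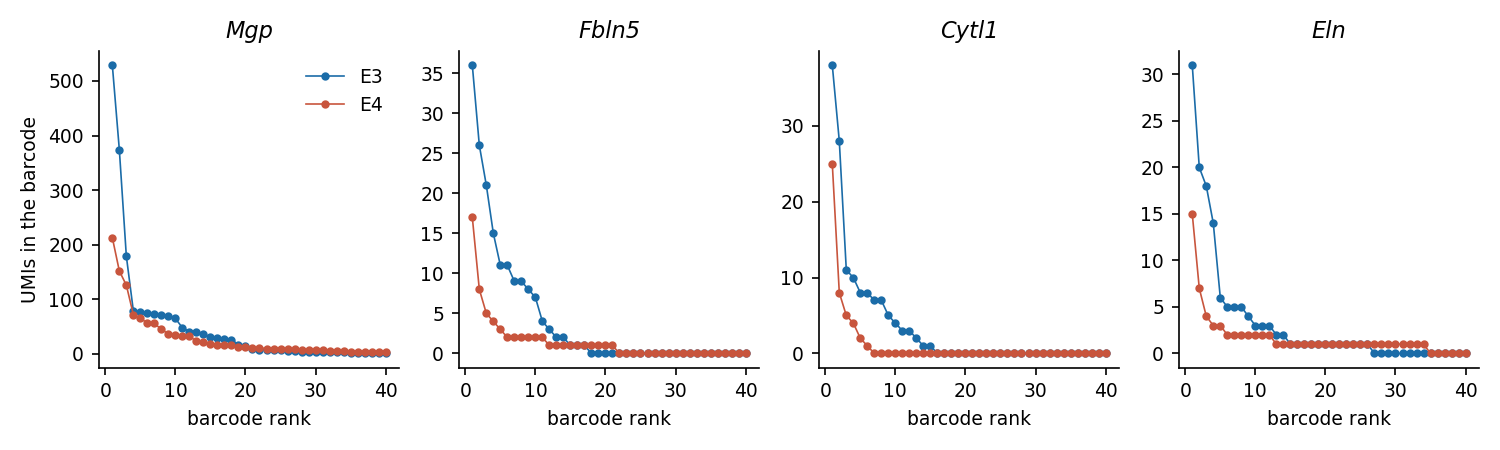
UMIs of Mgp, Fbln5, Cytl1 and Eln in the 40 arterial barcodes that hold most of each gene, ranked from high to low, in E3 (blue) and E4 (red). The top E3 barcodes exceeded the top E4 barcodes in all 4 genes, and most UMIs lay in the first few ranks.

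Between genotypes, arterial barcodes of E4 held less of the large-artery genes and more haemoglobin and oligodendrocyte transcripts, and each of these differences rested on few barcodes. Of 3756 genes with at least 100 UMIs in the arterial barcodes of both libraries together, 150 (3.99%) were at least 1.5-fold higher in E4 and 60 (1.60%) at least 1.5-fold lower. The higher share of these calls was 71.4%, and it was 51.7% once the median ratio of 0.07 was set to 0 (92 higher and 86 lower). Among the lowest 8 were Bgn, Cytl1, Fbln5, Ttr, Ecrg4, Eln and Folr1, and the highest 8 were Hbb-bt, Hbb-bs, Hba-a1, Hba-a2, Mag, Tubb4a, Ermn and Klhl2. With 1 pool of mice per genotype, genotype cannot be told apart from differences between the pools, their dissection or their loading.

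The large-artery genes were the lower group. Mgp had a log2 E4/E3 ratio of -1.33 (-1.43 to -1.23), Eln -1.63 (-2.08 to -1.20), Fbln5 -2.17 (-2.62 to -1.73), Cytl1 -2.26 (-2.78 to -1.76) and Bgn -2.32 (-3.04 to -1.66). Without the barcodes that held transcripts of another cell type, the ratios were lower still, at -2.11 for Mgp, -1.81 for Eln, -2.78 for Fbln5, -4.83 for Cytl1 and -3.32 for Bgn. Under that exclusion, Mgp fell against the other endothelial barcodes in E4 and changed little in E3, as given above. Of the 45 Cytl1 UMIs in E4 arterial barcodes, 25 lay in 1 barcode. Without the 17 E3 and 12 E4 barcodes described above, the log2 ratios were 0.031 for Mgp, 0.95 for Bgn, 0.18 for Vwf and 0.36 for Vcam1. Their intervals all included 0: -0.22 to 0.28, -1.01 to 3.45, -0.29 to 0.67 and -0.39 to 1.16. A difference in either direction is therefore not settled for the remaining members. Bgn rests on few counts, with 2 UMIs in E3 and 4 in E4 in members with none of the 3 split genes. Fbln2, Stmn2 and Hey1 had E4/E3 log2 ratios of 0.01, 0.18 and -0.01, with intervals that include 0. The other arterial genes named above were within 1.5-fold between libraries, except Edn3 at 0.61, Egfl8 at -0.69 and Dll4 at -0.64, and Gja5, for which E4 held no UMI. Dll4 was lower in the other endothelial barcodes of E4 as well, at -0.67. Car4 was at 0.61 (0.20 to 1.03), toward the level of the other barcodes.

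Transcripts of other cell types made up most of the remaining extremes. Ttr and Folr1, choroid plexus genes, were lower in E4, and Ttr had 20232 UMIs in E3 and 7922 in E4. Barcodes with at least 50 UMIs of Ttr and Enpp2 numbered 2 in each library and held 98.4% and 91.7% of those UMIs. Without the barcodes of another cell type's transcripts, the Ttr ratio was 0.18. Hbb-bs, an adult beta-globin, had 66 UMIs in E3 and 2701 in E4, of which 99.3% lay in 1 barcode, and without the top barcode of each library its log2 ratio was -2.13 in place of 4.69. Ermn, a myelin protein gene, had a log2 ratio of 1.43 and Tubb4a one of 1.53, and these were -0.85 and -1.13 once such barcodes were left out. Klhl2, a substrate adaptor for ubiquitin ligase, was different. It had 22 UMIs in 18 E3 barcodes and 91 in 64 E4 barcodes, its log2 ratio was 1.38 (0.70 to 2.13) and remained 1.30 without mixed barcodes, and in the other endothelial barcodes it was 0.56.

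Most gene lists differed little between the libraries. The median E4/E3 log2 ratio over all 3756 genes was 0.07. Blood-brain barrier transporters had a median of 0.10 with none of 22 past 1.5-fold. Slc2a1 had a log2 ratio of 0.45 in arterial barcodes and 0.32 in the other endothelial barcodes, so it was higher in the E4 library in both. Nuclear oxidative phosphorylation genes had a median of -0.13, with 29 of 39 lower in E4 and none past 1.5-fold, and their median in the other barcodes was -0.03. The share of all 3756 genes that was lower in E4 is not given here. The members Cox4i1, Cox6c, Cox8a and Atp5j were at -0.27, -0.27, -0.37 and -0.09. With a rule sum of at least 3, these ratios were smaller, at -0.08, -0.14, -0.19 and -0.06. Glycolysis genes had a median of 0.20, with 8 of 11 higher and none past 1.5-fold. Immediate-early and stress genes had a median of 0.36, with 4 of 12 past 1.5-fold higher: Fos, Ier3, Zfp36 and Fosb, at 0.86, 0.74, 0.66 and 0.71. In the other endothelial barcodes their ratios were 0.69, -0.20, -0.14 and 1.24. Lypd1, an arterial-side capillary gene, measured 52.7 and 106 CPM, with 44 and 140 UMIs. Medians of the other lists of endothelial and general genes lay between -0.07 and 0.23, apart from capillary genes at 0.28 and vein genes at -0.67, where 2 of 4 were past 1.5-fold lower (Vcam1 and Vwf). Apoe, the locus that differs between the mice, had 15 UMIs in E3 and 27 in E4 arterial barcodes (18.0 and 20.4 CPM), and the deposited features hold the mouse gene only, so the count does not check the genotype labels.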

How the data were processed

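Cells from pooled right hemispheres of E3 and E4 mice were profiled with droplet single-cell RNA sequencing, as 1 library per genotype. The authors aligned and counted the reads with Cell Ranger, and the deposited values are raw UMI counts per gene and barcode. Per the file headers the version was 6.1.2 for E3 and 6.1.1 for E4, and the submitters' processing notes name the build mm10. The effect of the version difference was not tested. E3 held 11485 barcodes with 56415229 UMIs and E4 13802 with 71625170. Of 32285 deposited genes, 32235 matched GENCODE vM21, and rows with the same symbol were summed.

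Endothelial barcodes had 1000 to 50000 UMIs, at most 30% mitochondrial UMIs, at least 5 UMIs of Cldn5, Flt1, Ly6c1 and Pecam1, under 5 of C1qa, C1qb and C1qc, under 8 of Aldoc and Gja1 and under 3 of Vtn and Kcnj8. Arterial barcodes also had at least 2 UMIs of Gkn3, Bmx and Sema3g and more than of Slc38a5 and Car5a. No doublet caller was run. Barcodes with at least 3 UMIs of Acta2, Tagln and Myh11, at least 10 of oligodendrocyte markers, at least 20 of haemoglobin genes or at least 50 of Ttr and Enpp2 were treated as mixed and left out in an alternative. Across the libraries 46 barcode sequences were shared.

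Counts were summed per library and set of barcodes, scaled to CPM, and compared as log2 ratios of CPM with no pseudocount. The interval of a ratio came from the exact binomial split of the counts, that of a level from the Poisson distribution and that of a share from the binomial distribution, each at 95%. They cover counting error between barcode sets only and not variation between mice. No statistical test was made, since each genotype is 1 pool. Genes in the arterial comparison needed 100 UMIs in the gate of each library, and those in the genotype comparison 100 UMIs in the arterial barcodes of both libraries together. The computation was tested on simulated data. Python 3.11.15, numpy 2.4.6, pandas 2.3.3, scipy 1.17.1 and matplotlib 3.10.9 were used.

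The members and lists were chosen with earlier results of these data known, and the 29 lists were written by hand without a pathway database. Genes of the gate were left out of them. A gene is not reported here by name or in a list, but stays in totals and in counts over all genes. Genes were named by a rule: the 15 highest and 15 lowest of the arterial comparison by the smaller ratio of the 2 libraries, the 8 highest and 8 lowest between genotypes, up to 4 abundant members of each list and those at least 1.5-fold apart, the genes of the gate, and Apoe. Genes with too few UMIs for the minimum, and the split by Fbln5, Cytl1 and Eln, were picked after their values were seen. Alternatives covered the sum required, depth, mitochondrial limit, mixed barcodes, thinning, scaling, count minimum and reference barcodes.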

Additional observations from a re-analysis of the deposited data

Results flagged for a closer look

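Barcodes outside the endothelial gate also carried the arterial genes. At least 2 UMIs of Gkn3, Bmx and Sema3g, and more than of Slc38a5 and Car5a, were found in 54 such E3 barcodes and 106 such E4 barcodes. Of these, 37 and 70 exceeded the limit on the mural genes Vtn and Kcnj8, 30 and 56 of them failing that limit alone. The limit on microglial genes was exceeded by 13 and 25, and the limit on astrocyte genes by 11 and 21. None of these barcodes entered the arterial values.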

How the results depend on the processing

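No paired analysis was possible because each genotype is 1 library. With a rule sum of at least 3, arterial barcodes made up 10.4% of the E3 gate and 10.9% of the E4 gate. The 60 genes higher in arterial barcodes became 19 after thinning and 105 with a count minimum of 50, and the 34 lower genes became 62 with that minimum and 11 against barcodes with none of the 5 zone genes, where 3086 genes could be compared. The 150 genes higher in E4 became 93 with a sum of at least 3, 36 after thinning, 92 with the median ratio set to 0, 393 with a minimum of 50 and 84 without mixed and choroid plexus barcodes. The 60 lower genes became 17 after thinning, 91 with the mean of per-barcode CPM and 173 with a minimum of 50. Thinning and a sum of at least 3 leave fewer UMIs or barcodes, and the minimum of 50 admits more genes. After thinning, 2767 genes could be compared between arterial and other barcodes and 924 between genotypes. Of the genotype calls, 10 of the 150 higher and 10 of the 60 lower genes were then called again. With a sum of at least 3, 3285 genes were compared between genotypes, and 67 of the 150 and 36 of the 60 were called again. The minimum of 50 let 8047 and 5950 genes be compared. For the other changes the cause was not tested.

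Signs of called E4/E3 log2 ratios turned as follows. With a sum of at least 3, Hba-a1 was -4.37, Hba-a2 -3.70, Hbb-bs -2.85 and Hbb-bt -1.63. Without mixed barcodes, Hba-a1 was -1.53, Hba-a2 -1.73, Hbb-bs -2.07, Hbb-bt -1.80, Ermn -0.90, Tubb4a -0.83, Tagln 0.37 and the oligodendrocyte median -0.14. Chosen after seeing the data, leaving out choroid plexus barcodes too gave Hba-a1 -1.71, Hba-a2 -1.81, Hbb-bs -2.12, Hbb-bt -1.71, Ermn -0.85, Tubb4a -1.13, Tagln 0.29, Ttr 0.18, an oligodendrocyte median of -0.17 and a choroid plexus median of 0.35, with a choroid plexus median of -0.16 for arterial against other E3 barcodes. Also chosen after seeing the data, leaving out barcodes with at least 3 UMIs of Fbln5, Cytl1 and Eln gave Mgp 0.031, Eln 0.26, Fbln5 2.12, Bgn 0.95, Vcam1 0.36 and Vwf 0.18. Fbln5 and Eln are part of that cut, so their turn of sign is no separate result. Their intervals were 0.011 to 5.29 and -0.74 to 1.34, and Fbln5 had 2 UMIs left in E3 and 15 in E4. Leaving out each library's highest barcode, chosen after seeing the data too, gave Hba-a1 -2.05, Hba-a2 -1.77, Hbb-bs -2.13 and Hbb-bt -1.67. Egr1 in E3 arterial against other barcodes was -0.31 after thinning. Across all alternatives, 70 of 142 E4/E3 gene ratios and 196 of 283 arterial-to-other gene ratios left their counting interval under at least 1 alternative without such a change of sign. Depth limits genes such as Gja5, Flrt2, Nrp2, Il1r1 and Apoe, each with under 30 UMIs in the arterial barcodes of a library.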

Other observations

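Pi16, a secreted peptidase inhibitor, had 9 UMIs in 3 E3 arterial barcodes and 37 UMIs in 7 E4 arterial barcodes, and none in the other endothelial barcodes of either library. With 3 counts as the floor for the others, it was at least 13.9-fold higher in E3 and at least 51.9-fold higher in E4. Of the 12 Gja5 UMIs in E3, 11 lay in the barcodes with at least 3 UMIs of Fbln5, Cytl1 and Eln.

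Taken on its own, the E3 library gave 116 genes at least 2-fold higher in arterial barcodes and 109 at least 2-fold lower. The E4 library alone gave 75 and 54.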
